A study of Homo sapiens with 6 samples.

Results

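The genes described here encode the proteins of the nuclear pore complex (nucleoporins) and the receptors that carry cargo through it. They were chosen by symbol alone, from NUP, POM121, importin, transportin, exportin and karyopherin names and a few single symbols such as TPR and NXF1, with 1 further exportin left out by the rule. This gave 53 of the 15917 genes listed. The cells were MDA-MB-231, a long-established breast cancer line of human origin and of mesenchymal, claudin-low type. They carried lentiviral short hairpins under puromycin selection, and luciferase labelling was common to all of them. The series holds 6 libraries of total RNA, 2 of them with a control hairpin (shCTRL), 2 with hairpin shRBMS3-B3 and 2 with hairpin shRBMS3-C3, both directed at RBMS3, a gene for an RNA-binding protein. The value analysed is the authors' mean normalized count, a single value per gene over libraries that are not specified. It carries no error and no number of replicates, mixes knockdown with control cells in an unknown proportion, and leaves the depth of each library unknown. A difference between knockdown and control cells cannot be had from it, and the authors' own comparison in the same table was set aside, so that no difference was tested here. With no error, neighbouring genes in any order of level below cannot be said to differ.

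The pore complex spans both membranes of the nuclear envelope. Its outer rings are built from the Y complex and enclose an inner ring, membrane proteins anchor it, and nucleoporins rich in phenylalanine-glycine (FG) repeats line the channel and form the barrier. Importins bind cargo in the cytoplasm and release it when the GTPase Ran, loaded with GTP in the nucleus, binds them. Exportins bind cargo together with RanGTP and release it in the cytoplasm. Bulk mRNA leaves through NXF1 and NXT1, which do not use Ran directly.

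Most of these genes were well expressed. Their mean normalized counts ran from 172 for NUP35 to 15518 for KPNB1, a 90.5-fold range, with a median of 1904 beside 364 over all listed genes. Of the 53 genes, 50 lay above the median of all genes, 41 above the 75th percentile and 21 above the 90th percentile, and the median percentile was 86.6. The 3 genes below the median of all were NUP35, NUP37 and KPNA5. Because the libraries were made from total RNA, counts were taken to grow with transcript length. Levels are therefore compared between genes as the mean normalized count per kilobase of the MANE Select transcript in GENCODE release 44. On that scale the range was 26.98 to 3665, the median was 387 beside 137 over all genes, and the median percentile was 75.2. On the per-kilobase scale 49 genes lay above the median of all genes, and KPNA2, KPNB1 and NUP62 lay above the 90th percentile.

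**Figure D1:**
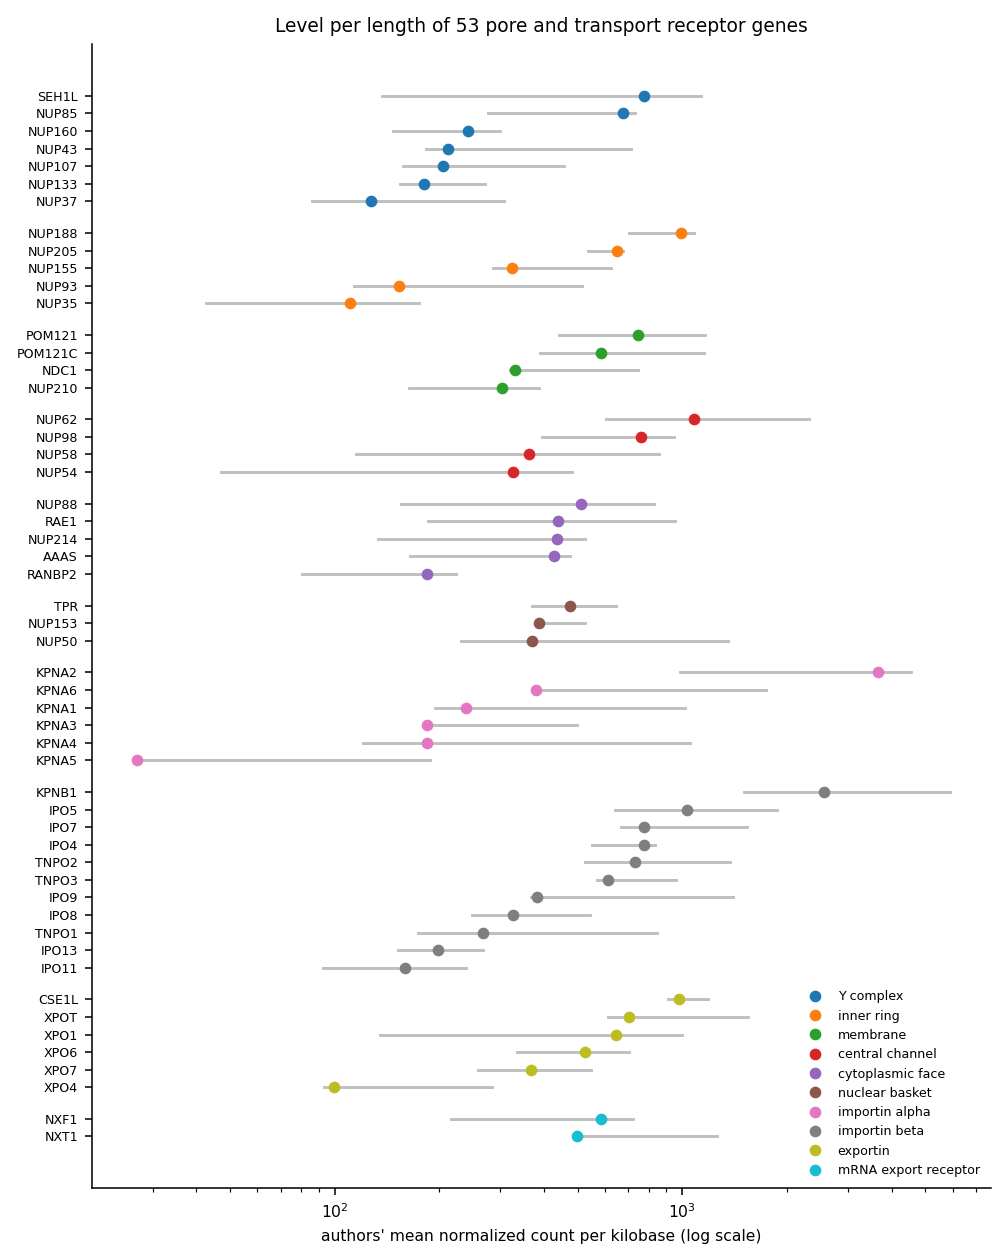
Mean normalized count per kilobase (horizontal axis, log scale) of the 53 genes, grouped by role. Points divide by the length of the representative transcript, and grey lines span the values obtained with transcript, merged-exon and coding length, so they show the effect of the length used and not an error. KPNA2 (3665) and KPNB1 (2562) lie to the right of all others and KPNA5 (26.98) to the left.

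The length used moves single genes. Of the 53 genes, 32 changed rank by more than 10 places between 4 scales, namely no length, transcript length, merged exons and coding length. KPNB1, KPNA2, IPO5 and IPO7 ranked 10 or better on all 4 scales, and KPNA5, NUP35, NUP37 and IPO11 were among the lowest 10 on all 4. KPNA2 stood first only with transcript length, and KPNB1 stood first with coding length, merged exons and no length. Across the 53 genes, transcript length and mean normalized count had a Spearman correlation of 0.36, and across 12408 listed protein-coding genes of 0.09. Transcript length and level per kilobase had correlations of -0.25 and -0.36, so longer transcripts tended to lie lower on that scale. All these values describe genes measured in the same libraries, and genes are not independent replicates.

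**Figure D2:**
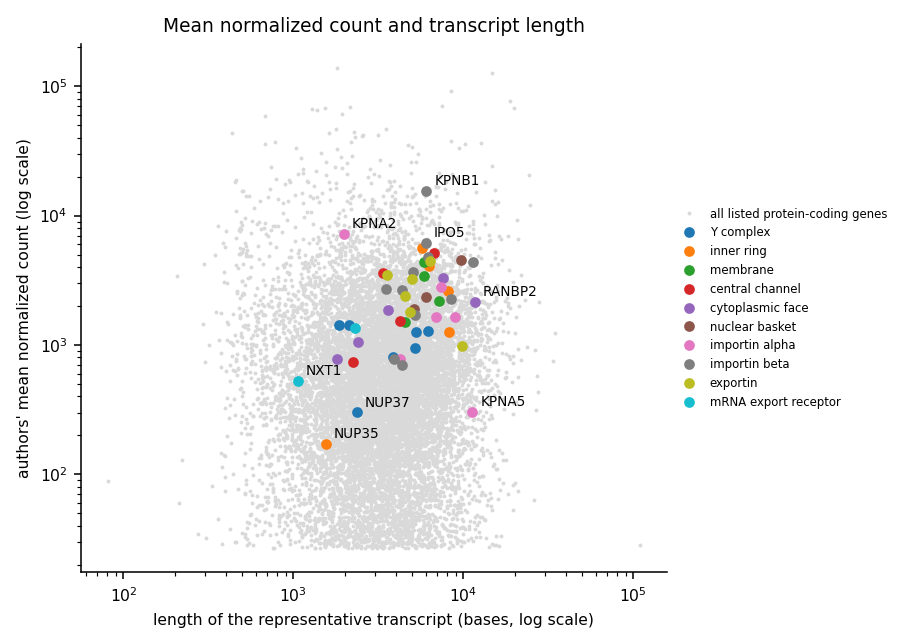
Mean normalized count (vertical axis, log scale) against length of the representative transcript (horizontal axis, log scale) for the 53 genes, coloured by role, and for all 12408 listed protein-coding genes in grey. The members lie mostly in the upper part of the cloud, with a median percentile of 83.9 by count among protein-coding genes. KPNA5 combines a long transcript with a count of 305.

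The 7 subunits of the Y complex whose symbols the rule matches form most of the scaffold of the outer rings. Their median was 212 per kilobase with transcript length, beside 212 for the importin alphas. With coding length the medians were 458 and 1038, and with merged exons 155 and 189. Among these 7, SEH1L, which the Y complex shares with a nutrient-sensing complex, was highest at 774 per kilobase. NUP85 followed at 674. The other scaffold subunits were lower, with NUP160 at 241, NUP43 at 212, NUP107 at 205 and NUP133 at 181 per kilobase. NUP37, a peripheral subunit, was lowest at 127 per kilobase, where its mean normalized count of 301 lay at the 45.6th percentile of all genes. These 7 subunits ranged 6.07-fold per kilobase, and 4.18-fold with coding length. SEC13, a subunit whose symbol the rule does not match, had 2471 per kilobase, and with it the 8 subunits had a median of 226 and a range of 19.4-fold.

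The inner ring joins the scaffold to the channel and the membrane. With transcript length its genes spread more widely than the 7 matched Y complex subunits (6.07-fold), but less widely than the 8 with SEC13 (19.4-fold). NUP188 (chr9:128947699-129007096) reached 995 per kilobase and NUP205, the other large scaffold subunit, 651. NUP155, which binds both membrane and channel sides, had 323 per kilobase. NUP93, the linker that recruits the channel nucleoporins, had 154. NUP35, which contacts the membrane, was the lowest of the 28 nucleoporins at 111 per kilobase (chr2:183117513-183161680), with the lowest mean normalized count of all 53 genes. The 2 large subunits thus stood above the others on the per-kilobase scale, and highest and lowest differed 8.96-fold.

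The pore membrane proteins covered a narrower range of 2.46-fold. POM121 had 747 per kilobase and its near-copy POM121C 584. NDC1, which anchors the complex in the envelope, had 330, and NUP210, a glycoprotein whose bulk lies in the lumen of the envelope, had 304 per kilobase. POM121 (chr7:72879349-72951440) and POM121C (chr7:75416786-75486299) lie 2465 kb apart, and their proteins were 97.6% identical over 984 aligned residues. Of the 75-base windows of their transcripts, 47.7% for POM121 and 50.8% for POM121C occur identically in transcripts of genes elsewhere, so the division of reads between them is uncertain.

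In the central channel, NUP62 (chr19:49906825-49929764), the core of the channel trimer, had 1078 per kilobase, the highest level of the 28 nucleoporins chosen here with transcript and with coding length, and its partners NUP58 and NUP54 had 364 and 327. NUP98, which bears GLFG repeats and whose precursor is also cut to yield a scaffold subunit of the Y complex, had 762 per kilobase. NUP62 thus had a level above its 2 partners on each length scale, although NUP188 exceeded it with merged exons, at 704 beside 602. Of the NUP62 windows, 16.5% also occur in other genes, nearly all in genes that overlap it at its own locus. The group ranged 3.30-fold with transcript length and 12.8-fold with merged exons.

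On the cytoplasmic face, NUP88 had 512 per kilobase and NUP214, to which it binds at the site where exported mRNA is remodelled, 435. RAE1, an mRNA export factor that binds NUP98, had 440, and AAAS, the WD-repeat protein aladin, 428 per kilobase. RANBP2, the large filament protein with SUMO ligase activity, was lowest at 184, although its mean normalized count was 2158. RANBP2 has the longest transcript of the 53 genes, and 20.5% of its windows occur in other genes, most often RGPD3, of the family copied from RANBP2. In the nuclear basket TPR had 474, NUP153 387 and NUP50 370 per kilobase, so the 3 basket genes lay within 1.28-fold of each other with transcript length and within 2.57-fold with coding length. Of the NUP50 windows, 10.5% occur in other genes.

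Among the importin alphas, the adaptors that bind nuclear localization signals, KPNA2 (chr17:68035636-68047364) had 3665 per kilobase and stood above its relatives on each length scale. It exceeded KPNA6, the next highest, by 9.63-fold with transcript length and by 2.62-fold with both merged exons and coding length. KPNA6 had 381, KPNA1 239, KPNA3 185 and KPNA4 184 per kilobase. KPNA5 (chr6:116681187-116741867) was lowest of all 53 genes at 26.98, the 14.6th percentile, and 6.36% of its windows occur in transcripts of genes elsewhere. KPNA2 exceeded KPNA5 by 136-fold with transcript length, 37.5-fold with merged exons and 24.2-fold with coding length. KPNA2 thus contributed 78.3% of the summed level of the 6 importin alphas with transcript length, 52.2% with merged exons and 50.3% with coding length. Of its windows, 10.7% occur in other genes, mostly a transcript that contains a KPNA2 pseudogene.

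Protein identity divided the importin alphas into the known subfamilies. KPNA3 and KPNA4 were 85.8% identical and KPNA5 and KPNA6 84.5%, while KPNA1 was 82.2% identical to KPNA6 and 80.7% to KPNA5. KPNA2 was 47.0% to 52.7% identical to the others. Levels differed within subfamilies. KPNA6 exceeded KPNA5, its nearest relative, by 14.1-fold with transcript length and by 9.25-fold with coding length, whereas the order of KPNA3 and KPNA4 depended on the length used, KPNA4 being 2.11-fold higher with coding length and KPNA3 1.53-fold higher with merged exons.

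**Figure D3:**
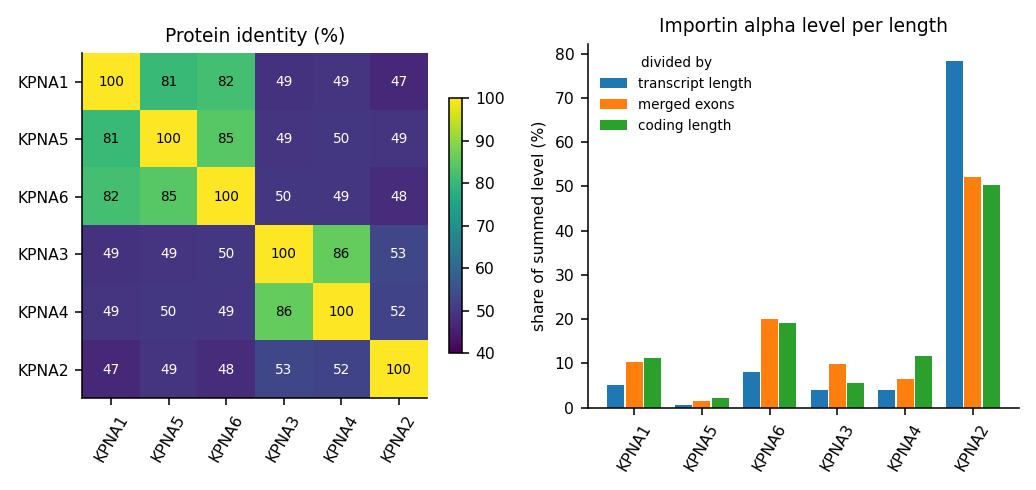
Left, percent identity between the 6 importin alpha proteins (rows and columns, colour scale in percent). Right, each gene's share in percent of the summed level of the 6, with bars for transcript length, merged exons and coding length. KPNA2 has the highest share on each scale (78.3%, 52.2% and 50.3%) and is the protein least like the rest.

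KPNB1 (chr17:47649476-47685505), importin beta 1, is the carrier that takes importin alpha and its cargo through the pore, and it had 2562 per kilobase. It held 32.8% of the summed level of the 11 importin betas and transportins with transcript length. The share was 27.4% with merged exons and 37.4% with coding length. IPO5, which carries ribosomal proteins and histones, had 1029, IPO7 779 and IPO4 775 per kilobase. TNPO2 had 730 and TNPO3, which imports SR splicing factors, 612. IPO9 had 383, IPO8 325 and TNPO1, the receptor of hnRNP A1, 268 per kilobase. IPO13, which carries cargo both ways, had 199, and IPO11 was lowest at 160. Of the IPO4 windows, 94.9% also occur in a gene annotated over the same locus, so its level may include reads of that gene. TNPO1 and TNPO2 were 86.2% identical, and TNPO2 was 2.73-fold, 3.03-fold and 1.62-fold higher with transcript, merged-exon and coding length. IPO7 and IPO8 were 65.1% identical, and IPO7 was 2.39-fold to 2.83-fold higher over the 3 lengths.

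Among the exportins, CSE1L, which returns importin alpha to the cytoplasm, had 976 per kilobase and 29.5% of the summed level of the 6. XPOT, the tRNA exporter, had 702. XPO1 (chr2:61476032-61538741), the exportin of leucine-rich nuclear export signals, had 645 per kilobase. XPO6, which exports actin with profilin, had 524 and XPO7 367. XPO4 was lowest at 99.4, the 41.7th percentile. The order at the top depended on length, since with coding length XPOT had the highest share, 29.4%, and the share of XPO1 was 5.76% with merged exons and 19.5% with transcript length. XPO1 and CSE1L proteins were 28.6% identical. NXF1 and NXT1, the partners that carry bulk mRNA, had 586 and 497 per kilobase.

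The nucleoporins divided by their FG content, counted in proteins translated from the GENCODE coding sequences. The 28 nucleoporins held 264 FG dipeptides, of which 80 were in FXFG or GLFG form, with a median of 4 each. The 25 receptors held 28, with a median of 1. NUP214 had 44, NUP98 40, NUP153 29, POM121 24, POM121C 24, RANBP2 22, NUP58 14 and NUP54 9. These 8 proteins, taken by a limit of 9 that was set after the counts were seen, held 78.0% of the dipeptides. NUP62 came next with 6. These counts are not scaled by protein length. RANBP2 has its 22 FG in 3224 residues and NUP62 its 6 in 522. Per residue, RANBP2 ranked below NUP62, NUP50, NUP35, RAE1 and NDC1, which are all outside the 8. At least 9 FG were present in 75 of 12359 listed protein-coding genes, or 0.607%. The 8 genes with at least 9 FG had a median level of 411 per kilobase. The median was 350 for the other 20 nucleoporins, which include NUP62 at 1078. Scaffold subunits of the Y complex had at most 4 FG each, and NUP37 had none.

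**Figure D4:**
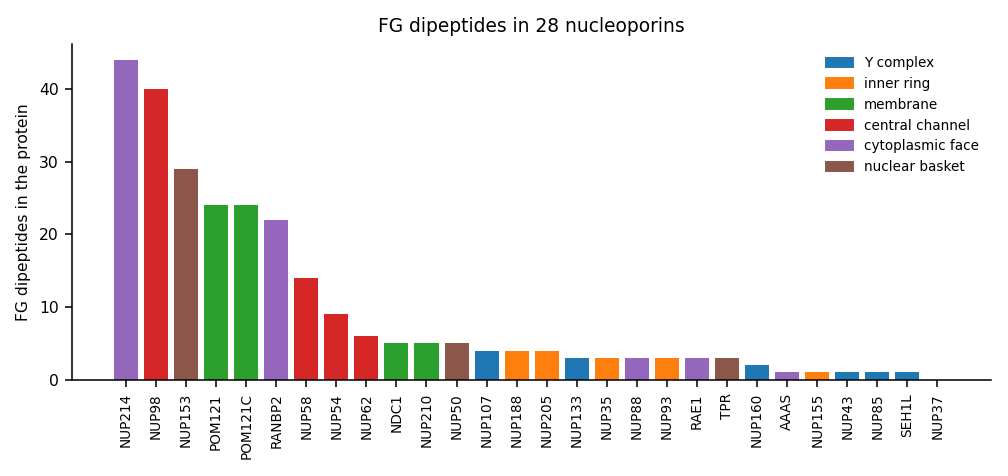
Number of FG dipeptides (vertical axis) in each of the 28 nucleoporins, in falling order and coloured by group. The 8 proteins from NUP214 (44) to NUP54 (9) hold 78.0% of the 264 dipeptides.

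RBMS3 binds A- and U-rich RNA, and the study places an AUA-containing element in the 3′UTR of its targets. The element was counted as 7 bases with A, G or T first, A or T second, ATA next, A or T sixth and A last, overlapping matches included. When its second and sixth bases are A, it contains the polyadenylation signal AATAAA, which the study reports as its most significant motif at RBMS3 sites. How many matches are such signals was not counted. At least 1 match was present in 49 of the 53 3′UTRs, or 92.5%, beside 84.8% of 12349 listed genes with a 3′UTR, an excess of 7.62 percentage points. With the longest annotated 3′UTR of each gene the excess was 3.61 points. NUP188, TNPO2, IPO13 and CSE1L had none. In all, 387 matches were found, with a median of 4 beside 3. Matches increased with 3′UTR length, with a Spearman correlation of 0.81 across the 53 genes and 0.72 across all listed protein-coding genes with a 3′UTR. Within tertiles of 3′UTR length, 11 of 14 members had a match in the shortest (78.6% beside 67.3%). In the middle it was 18 of 19 (94.7% beside 89.4%) and in the longest 20 of 20 (beside 97.9%). Median counts were 1 beside 1 in the shortest, 3 beside 3 in the middle and 12.5 beside 9 in the longest. In the same order, median matches per kilobase of 3′UTR were 4.25 beside 2.78, 1.89 beside 2.25 and 2.92 beside 2.44. The share of members with at least 15 matches was 17.0%, beside 10.3% of listed genes, a comparison not matched for 3′UTR length. A match is a run of letters and says nothing on binding.

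**Figure D5:**
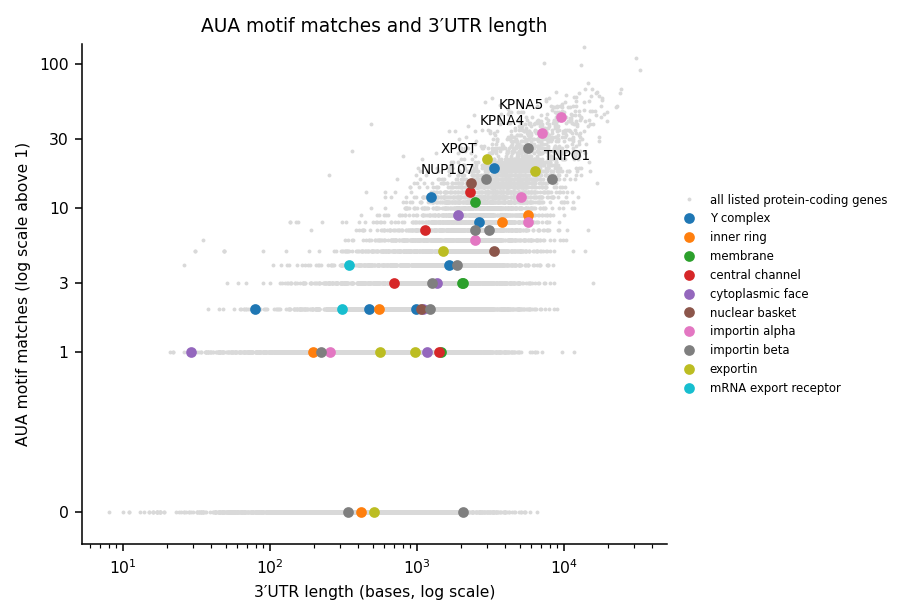
Number of matches to the AUA element (vertical axis, log scale above 1) against 3′UTR length (horizontal axis, log scale) for the 53 genes, coloured by group, and for listed protein-coding genes in grey. The points of the members rise with length inside the grey cloud, up to 43 matches in KPNA5.

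The densest 30-base stretch is shown for the 5 members with the most matches. Matches overlap in each of these stretches, and other members were not examined for overlap. Capitals mark bases inside a match, and sequences are from the transcript strand in GENCODE release 44 on hg38. KPNA5 has 43 matches in its 3′UTR (site at chr6:116733584-116733613, plus strand, 4 matches). KPNA4 has 33 (chr3:160502013-160502042, minus strand, 9 matches). TNPO1 has 26 (chr5:72911554-72911583, plus strand, 3 matches). XPOT has 22 (chr12:64448643-64448672, plus strand, 7 matches). NUP107 has 19 (chr12:68745524-68745553, plus strand, 3 matches).
KPNA5: aaaTTATATATATAtttatacATATATAtg
KPNA4: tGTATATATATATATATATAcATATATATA
TNPO1: acatcatgggATATATATAAAgcaacttaa
XPOT: ttttTTATATATATATATAAAAATAAActt
NUP107: gatccaaaacATATATATATAtttgtatgc
All 5 stretches hold a run of alternating A and T. The marked bases cover most of the stretch in KPNA4, XPOT and KPNA5, and form a single shorter block in TNPO1 and NUP107. The 5 genes had levels of 26.98 (KPNA5), 184 (KPNA4), 268 (TNPO1), 702 (XPOT) and 205 (NUP107) per kilobase. Of these, only XPOT lay above the median of 387 of the 53 genes. Transcript length includes the 3′UTR that holds the matches. With coding length, KPNA4 (1054), TNPO1 (843) and XPOT (1550) lay above the median of 744, and KPNA5 (188) and NUP107 (458) below it.

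The transcripts differed from those of other genes in size and composition. The median transcript of the 53 genes was 5208 bases beside 3439 for listed protein-coding genes, and the median coding sequence 2775 beside 1419 bases, spread over 22 beside 9 exons. The 3′UTR was of similar length, 1497 beside 1378 bases. The coding sequence was poorer in G and C, with a median of 44.9% beside 52.0%, and the 3′UTR richer in A and U, with 62.4% beside 57.9%. The genes are spread over 19 chromosomes, and the closest pair, NUP188 and NUP214, is 2118 kb apart.

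Promoter sequences of 300 bases, 250 before and 50 after the start, were available from RefSeq (GRCh38.p14) for 48 of the 53 genes, all except KPNA4, KPNA5, KPNB1, NUP43 and XPO7. The ETS motif CCGGAAG, searched on both strands, was in 17 of 48 promoters (35.4%), beside 19.5% of listed genes and 10.7% of all promoters. The 17 genes came from every group except the importin alphas and included SEH1L, NUP107, NUP214, TNPO3 and XPOT. The near-copies POM121 and POM121C were both among them. The NRF1 core GCATGCGC was in 4 (8.33%), beside 5.54% and 3.27%, and with GC added at its 5′ end in 3 (6.25%), beside 2.27% and 1.36%. CCAAT was in 21 (43.8%), beside 36.9% and 35.7%. TATAAA was in 3 (6.25%), beside 5.32% and 12.0%. A match is a description and not a binding site.

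Genes of the same pathway outside the 53 were also listed. All 6 genes of the Ran cycle were present, with RAN at 3525 and its cofactor RANBP1 at 3048 per kilobase, the GTPase-activating RANGAP1 at 1400, the nuclear exchange factor RCC1 at 846, the RanGDP carrier NUTF2 at 710 and RANBP3 at 659. RAN was thus near KPNA2 on this scale. Of the other pore proteins, SEC13, which the Y complex shares with the coat of secretory vesicles, had the highest level, 2471 per kilobase, and AHCTF1, which brings the Y complex to chromatin, had 293. GLE1 had 501, DDX19A 435, NUPL2 214, DDX19B 202 and NUP62CL 36.9.

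The label of the line was checked against marker genes. Of 5 mesenchymal markers 4 were listed, with VIM at 32189, AXL at 7502, CAV1 at 2014 and CD44 at 1850 per kilobase. Of 7 luminal markers 4 were listed, from CDH1 at 6.57 to EPCAM at 69.3 per kilobase, and of 4 stromal or immune markers COL1A1 was listed at 32.5. SPARC, the fifth mesenchymal marker, was not among the listed genes, nor were the luminal markers ESR1, PGR and FOXA1 or the stromal and immune markers DCN, PTPRC and CD3E.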

How the data were processed

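Total RNA of 6 libraries was sequenced by the authors with a stranded kit for small inputs that depletes ribosomal cDNA. Per the labels, processing by the authors used Salmon and DESeq2 on hg38, and the study's methods state versions and an annotation of these tools for other experiments but not for this one. The deposited table holds for each gene a signal, the authors' mean normalized count. It also holds 5 columns of the authors' own comparison of knockdown with control (a log2 fold change, its standard error, a test statistic, a p-value and an adjusted p-value), which were not used. These columns were set aside because they hold the study's own findings. No value of a single library was analysed, so depth and replicate spread are unknown, and no comparison between groups was made.

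Lengths, coordinates and 3′UTRs were taken from the representative (MANE Select) transcripts of GENCODE release 44, which has 15829 of the 15917 listed genes and lacks 88. Proteins were translated from these coding sequences, although RefSeq proteins had been planned. Identity is over aligned columns without gaps (BLOSUM62, gap open -10, extend -0.5). Windows of 75 bases, the read length, were searched in all GENCODE transcripts. Every member is named with its level, by a rule that fixed the structural groups and the related genes. Members and lists were chosen with earlier results of these data known. Promoter motifs were chosen after the files were seen, and the NRF1 core was added after the count of its longer form was known. Functions were tested on simulated data, with 7 of 7 checks as made. Python 3.11.15, numpy 2.4.6, pandas 2.3.3, SciPy 1.17.1, Biopython 1.88 and matplotlib 3.10.9 were used.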

Additional observations from a re-analysis of the deposited data

How the results depend on the processing

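The median level of the 53 genes, 387 per kilobase of transcript, was 744 with coding length, 231 with merged exons and 1904 with no length. Their median percentile, 86.6 by mean normalized count, was 83.9 among protein-coding genes and 75.2 per length. Ordering the 10 groups by the mean of log2 levels changed the place of 9. The 264 FG dipeptides of the nucleoporins came to 80 with FXFG and GLFG alone. The share of 3′UTRs with the AUA element exceeded that of listed genes by 7.62 percentage points, by 7.30 with at least 3 matches, by 3.61 with the longest 3′UTR of each gene and by 5.71 against genes of the same tertiles of 3′UTR length. The share of promoters with the NRF1 motif, 6.25%, was 8.33% with its 8-letter core, and the median of the Y complex, 212 per kilobase, was 226 with SEC13. The core and SEC13 were added once the data had been seen. No paired analysis was possible because the table holds no value of a single library. For the same reason the replicate block, leaving out each replicate, other size factors and no filter on low counts were not run.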
